A study of Mus musculus with 6 samples.

Results

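The genes described here are 40 type I interferon-stimulated antiviral genes, chosen by symbol from a list of sensors, transcription factors and effectors that cells switch on when interferon is detected. Of the 40 symbols, 38 were matched among the 18437 genes of the table, and Mx1 and Mx2 were not analysed here. The 6 libraries were made from tongue tumours grown in C57BL/6 mice after injection of 4MOSC1 cells, which derive from a murine squamous carcinoma of the oral cavity. The 3 control libraries came from tumours of 4MOSC1-con cells, and the 3 LIGHT libraries from tumours of 4MOSC1-LIGHT cells, which overexpress LIGHT, a ligand of the TNF family and the product of Tnfsf14. The mice of both groups were of the same strain and carried the same parental tumour line, and the labels give no age, sex or time after injection. The labels do not say whether the LIGHT line is a single clone, and they tie no library to an animal, so p-values measure only the spread between these samples, which may be technical.

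Type I interferons bind a receptor of IFNAR1 and IFNAR2, whose kinases JAK1 and TYK2 activate transcription factors that include STAT2. With IRF9, STAT2 is part of the complex ISGF3, which binds the interferon-stimulated response element (ISRE) in the promoters of antiviral genes. Interferon gamma, the product of activated T and natural killer cells, acts at gamma-activated sites and through the transcription factor IRF1. Many antiviral genes respond to both kinds of interferon, so their RNA alone does not tell one kind of interferon from the other.

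The values are TPM, transcript abundances corrected for gene length and scaled to the same total in each library. Levels can thus be compared between genes of a library. Comparisons between libraries are of shares of that total and depend on the scaling. TPM keeps no sequencing depth, and the depth behind each value is unknown. Tnfsf14 was at 0.66, 0.53 and 0.79 TPM in the control libraries and 26.2, 25.9 and 23.9 TPM in the LIGHT libraries. None of 12 squamous markers was near 0. Of the 12, 1 fell (Krt6a, named after its values were seen) and none rose, against 5.41% and 17.7% of all tested genes. Krt6a was called in 8 of 17 other settings of the test, which is described below. The summed level of the 12 markers was 33154 to 39099 TPM in the control and 24715 to 34443 TPM in the LIGHT libraries. Values below are given in the order of replicates 1, 2 and 3. The tumours are bulk tissue, in which more cells of a type and more RNA per cell cannot be told apart.

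The ISRE core was searched on both strands of promoter windows that run from 250 bases before to 50 bases after a RefSeq start site (GRCm38.p6). The letters searched were GAAANNGAAA and its reverse complement TTTCNNTTTC, and overlapping matches were counted. Of the 38 genes, 30 had a window. At least 1 match was found for 15 of the 30 (50%), against 3.99% of the 27025 genes with a window and 3.44% of all 32851 windows. The gamma-activated site core TTCNNNGAA, which reads the same on both strands, was found for 8 of the 30 (26.7%), against 9.55% of genes. Both cores were found for 4 of the 30, against 0.614% of genes. Oas2, Usp18, Dhx58, Ifi27, Ifi204, Rtp4, Parp9 and Parp14 had no entry.

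Upstream stretches of Oas3, Stat2 and Trim30a also hold an ISRE core but are not shown. The stretches below each hold the core, although the RNA of their genes changed by unlike amounts. They were chosen after these values were seen. Each is written 5′ to 3′ on the strand of the gene, with the ISRE cores in capitals, and no GENCODE M21 exon overlaps any of them.
Ifit1: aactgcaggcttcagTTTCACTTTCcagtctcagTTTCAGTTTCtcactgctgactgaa
Ifit3: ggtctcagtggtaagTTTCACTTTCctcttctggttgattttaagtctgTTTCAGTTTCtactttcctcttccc
Ifit3b: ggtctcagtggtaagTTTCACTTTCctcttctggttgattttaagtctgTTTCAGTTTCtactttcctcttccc
Isg15: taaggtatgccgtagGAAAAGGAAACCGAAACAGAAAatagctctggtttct
Bst2: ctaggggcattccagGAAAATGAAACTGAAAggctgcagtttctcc
Oas1a: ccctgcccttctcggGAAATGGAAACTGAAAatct
Oas1g: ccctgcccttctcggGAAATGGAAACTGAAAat
Rsad2: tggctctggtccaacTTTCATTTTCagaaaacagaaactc
The Ifit1 stretch is chr19:34640770-34640828 on the plus strand, the Ifit3 stretch chr19:34583358-34583431 and the Ifit3b stretch chr19:34607754-34607827. The Isg15 stretch is chr4:156200860-156200911 on the minus strand, and that of Bst2 is chr8:71537572-71537617, also on the minus strand. Oas1a has chr5:120907526-120907560, Oas1g chr5:120887614-120887646 and Rsad2 chr12:26456548-26456587, all on the minus strand. Ifit1, Ifit3 and Ifit3b hold the same pair of cores, TTTCACTTTC and TTTCAGTTTC. Counted from the start site, the cores begin at -104 and -85 in Ifit1, at -156 and -122 in Ifit3 and at -188 and -154 in Ifit3b. All stretches lie before the RefSeq start site of their window. Those of Ifit3, Ifit3b and, in part, Oas1a are inside the full span that RefSeq gives for the gene, which begins farther upstream than that start site. The 74-base stretches of Ifit3 and Ifit3b are identical. A match is a description of the letters and does not show that a factor binds there.

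In LIGHT tumours 19 of the 38 antiviral genes rose and 0 fell (limma, Benjamini-Hochberg adjusted p under 0.05 over all tested genes). By the same rule, 17.7% of the 13167 tested genes were higher and 5.41% lower. All 38 passed the filter on low values, and none did so through 1 group alone. Their median log2 fold change, a difference of log2(TPM + 1), was 0.58, against 0.09 over all tested genes. The values ran from -0.05 in Ifi204 to 1.81 in Ifit3. Of the IFIT genes 3 of 4 rose, of the RNA sensors 2 of 3, of the membrane proteins 2 of 3 and of the ISG15 system 0 of 3. In 27 of the 38 genes the 3 LIGHT libraries lay above all 3 control libraries, against 29.6% of tested genes, and in 11 the groups overlapped. Mean TPM was at least 2-fold higher in LIGHT tumours for 9 of the 38, against 6.51% of tested genes.

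**Figure D1:**
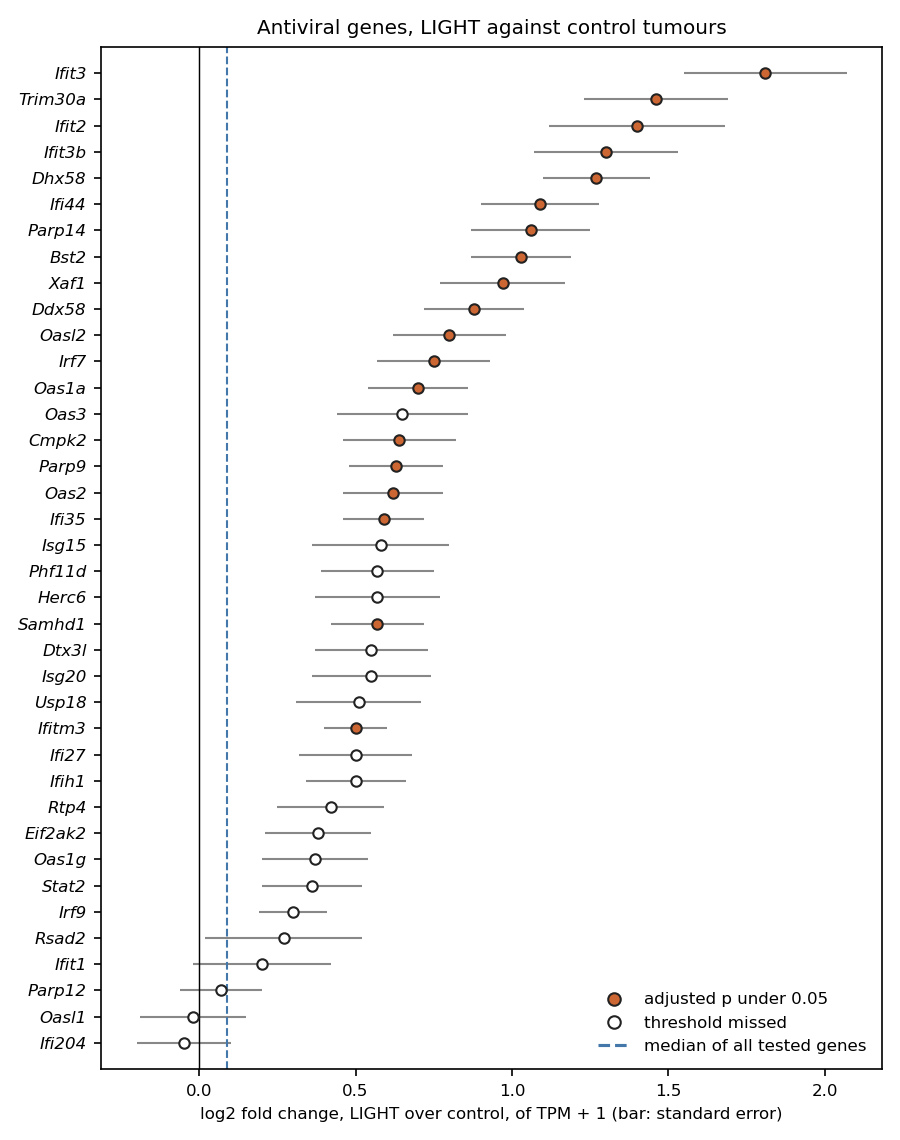
Log2 fold change of TPM + 1, LIGHT over control, for each of the 38 antiviral genes (horizontal axis), with its standard error as a bar, from limma on 3 control and 3 LIGHT libraries. Filled points are the 19 genes with an adjusted p under 0.05, open points missed that threshold, and the dashed line is the median of all 13167 tested genes, 0.09.

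Leaving out control replicate 1 brought the count of higher genes to 12 and leaving out control replicate 3 to 13, while it stayed at 16 to 19 when any of the other 4 libraries was left out. It was 10 with the mean of the skeletal muscle markers as a covariate, against 581 of the 13167 tested genes. With that of the red blood cell markers it was 12, against 976 of the 13167. Without a covariate 2325 of the 13167 rose. Of the antiviral genes called without control replicate 1 or with either covariate, all but 1 were among the 19. With trimmed-mean scaling, which lowered the median of all tested genes from 0.09 to -0.04, 13 of the 38 rose and their median was 0.44. Ddx58, Xaf1, Parp14, Ifi44, Dhx58, Ifit3b, Trim30a and Ifit3 were called in each of the 17 other settings. Ifit2 and Bst2 lost the call with the muscle covariate alone (adjusted p = 0.054 and adjusted p = 0.0508), and Oasl2 with the red blood cell covariate alone (adjusted p = 0.0618).

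RNA sensors. The RIG-I-like receptors detect viral RNA in the cytosol. Ddx58, which encodes RIG-I, was at 12.1, 14.2 and 13.6 TPM in control tumours against 32.9, 21.3 and 22.7 in LIGHT tumours and rose (log2 fold change of 0.88 ± 0.16 SE, adjusted p = 0.0101 by limma). Dhx58, encoding LGP2, a relative without signalling domains that tunes the others, was at 9.05, 14.1 and 11.3 TPM in control tumours against 34.6, 26.2 and 25.96 in LIGHT tumours. It rose by the largest amount of the 3 sensors (log2 fold change of 1.27 ± 0.17 SE, adjusted p = 0.00361 by limma). Ifih1, encoding MDA5, which recognises long RNA duplexes, was at 16.5, 17.8 and 16.9 TPM in control tumours against 32.01, 21.2 and 21.5 in LIGHT tumours. Its LIGHT libraries were above every control library, but it missed the threshold (log2 fold change of 0.50, adjusted p = 0.0572 by limma) and passed it with robust limma only (adjusted p = 0.0486).

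Transcription factors. Irf7, the factor that amplifies interferon alpha production, was at 146, 188 and 202 TPM in control tumours against 378, 286 and 248 in LIGHT tumours and rose (log2 fold change of 0.75 ± 0.18 SE, adjusted p = 0.0218 by limma). It missed the threshold without LIGHT replicate 2 (adjusted p = 0.0511) or control replicate 1 (adjusted p = 0.0514), and with the red blood cell covariate, a replicate block, the muscle covariate or trimmed-mean scaling. The other 2 factors are parts of ISGF3. Irf9, its DNA-binding part, was at 44.9, 53.7 and 46.5 TPM in control tumours against 68.1, 54.4 and 56.6 in LIGHT tumours (log2 fold change of 0.30, adjusted p = 0.102 by limma). Stat2 was at 72.6, 92.2 and 72.8 TPM in control tumours against 128, 91.2 and 89.6 in LIGHT tumours (log2 fold change of 0.36, adjusted p = 0.144 by limma), with LIGHT replicates 2 and 3 inside the control range.

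IFIT family. The IFIT genes encode proteins of tetratricopeptide repeats that bind viral RNA or block its translation. They lie close together on chromosome 19, with Ifit1-like genes among them (Ifit2 from 34550550 to 34576534, Ifit3 from 34583119 to 34588982, Ifit3b from 34607530 to 34613403 and Ifit1 from 34640889 to 34650009). Ifit3 was at 36.8, 50.9 and 56.3 TPM in control tumours against 251, 152 and 124 in LIGHT tumours, a mean 3.66 times as high (log2 fold change of 1.81 ± 0.26 SE, adjusted p = 0.00447 by limma). Ifit2 was at 11.2, 13.9 and 16.3 TPM in control tumours against 60.1, 33.04 and 27.03 in LIGHT tumours (log2 fold change of 1.40 ± 0.28 SE, adjusted p = 0.0119 by limma), and Ifit3b at 20.6, 24.7 and 30.1 TPM in control tumours against 89.5, 56.6 and 48.2 in LIGHT tumours (log2 fold change of 1.30 ± 0.23 SE, adjusted p = 0.00874 by limma). In these 3 genes each LIGHT library was above every control library. Ifit1 was at 107, 137 and 139.7 TPM in control tumours against 208, 134 and 112 in LIGHT tumours (log2 fold change of 0.20 ± 0.22 SE, adjusted p = 0.548 by limma). Only LIGHT replicate 1 was above the control range of Ifit1, and LIGHT replicate 3 was below control replicates 2 and 3. Ifit1 was the most abundant of the 4 in each control library, while Ifit3 was the most abundant in each LIGHT library. Ifit3 and Ifit3b share sequence: 51.2% of the 50-base windows of the Ifit3 transcript were found exactly in Ifit3b, so reads may have been split between them. The corresponding share of Ifit1 with any other gene was 7.13%, and of Ifit2 0%. Ifit1bl1, an Ifit1-like gene chosen for mention after its values were seen, was at 276, 325 and 336 TPM in control tumours against 277, 197 and 128 in LIGHT tumours (log2 fold change of -0.70, adjusted p = 0.0806 by limma). RefSeq gives Ifit1bl1 a span from 34592888 to 34662981, which covers those of Ifit3b and Ifit1. How reads there were assigned is unknown, so the values of these genes are uncertain relative to each other.

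OAS family and PKR. Oligoadenylate synthetases make a messenger that activates the RNA-cutting enzyme RNase L. Oas1a was at 28.0, 39.8 and 33.6 TPM in control tumours against 64.5, 55.5 and 46.6 in LIGHT tumours and rose (log2 fold change of 0.70 ± 0.16 SE, adjusted p = 0.0186 by limma), a call lost without LIGHT replicate 2 (adjusted p = 0.0526) or control replicate 3 (adjusted p = 0.0565), and with the red blood cell covariate or the muscle covariate. Oas1g was at 22.9, 29.9 and 22.8 TPM in control tumours against 41.3, 30.2 and 27.8 in LIGHT tumours (log2 fold change of 0.37, adjusted p = 0.155 by limma) and LIGHT replicate 3 was below control replicate 2. Of Oas1a's 50-base windows 56.9% were found in Oas1g, so these 2 values are uncertain relative to each other. Oas2 was at 14.6, 22.02 and 19.2 TPM in control tumours against 33.7, 26.6 and 26.4 in LIGHT tumours and rose (log2 fold change of 0.62 ± 0.16 SE, adjusted p = 0.0312 by limma), but missed the threshold without LIGHT replicate 1 (adjusted p = 0.0712), LIGHT replicate 2 (adjusted p = 0.057), LIGHT replicate 3 (adjusted p = 0.0626), control replicate 1 (adjusted p = 0.061) or control replicate 3 (adjusted p = 0.073). The call was also lost with no filter on low values, quantile normalization, the red blood cell covariate, a replicate block or trimmed-mean scaling, so that it held in 7 of 17 other settings. Oas3 was at 22.1, 32.4 and 23.3 TPM in control tumours against 55.9, 34.04 and 35.6 in LIGHT tumours. Its groups did not overlap, yet it missed the threshold (log2 fold change of 0.65, adjusted p = 0.0628 by limma) and passed it without control replicate 2 (adjusted p = 0.0481).

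Of the OAS-like proteins, OASL2 keeps the enzyme activity, while OASL1 lacks it and is known to repress translation of Irf7. Oasl2 was at 169.6, 236 and 213 TPM in control tumours against 453, 336 and 299 in LIGHT tumours and rose (log2 fold change of 0.80 ± 0.18 SE, adjusted p = 0.0177 by limma). Oasl2 lies on chromosome 5 from 114896926 to 114912245, next to Oasl1, from 114923143 to 114937911. Oasl1 was at 20.4, 27.9 and 27.4 TPM in control tumours against 28.2, 27.4 and 19.3 in LIGHT tumours (log2 fold change of -0.02 ± 0.17 SE, adjusted p = 0.952 by limma). The LIGHT values of Oasl1 spanned the whole control range. Eif2ak2, encoding PKR, the kinase that stops translation on sensing RNA duplexes, was at 18.8, 22.8 and 17.9 TPM in control tumours against 34.1, 22.3 and 22.98 in LIGHT tumours (log2 fold change of 0.38, adjusted p = 0.157 by limma), with LIGHT replicate 2 below control replicate 2.

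ISG15 system. ISG15 is a ubiquitin-like protein attached to other proteins by an enzyme cascade and removed by USP18, which also damps signalling at the interferon receptor. Isg15 was at 261, 415 and 371 TPM in control tumours against 660.1, 502 and 402 in LIGHT tumours, with LIGHT replicate 3 inside the control range (log2 fold change of 0.58, adjusted p = 0.098 by limma). Usp18 was at 28.2, 32.02 and 32.6 TPM in control tumours against 62.1, 40.1 and 34.7 in LIGHT tumours (log2 fold change of 0.51, adjusted p = 0.105 by limma). Herc6, the ligase of the cascade in mice, was at 9.80, 10.02 and 10.5 TPM in control tumours against 22.5, 13.6 and 12.2 in LIGHT tumours (log2 fold change of 0.57, adjusted p = 0.0803 by limma). The LIGHT values of Usp18 and Herc6 were all above control, with replicate 1 the highest. None of the 3 passed the threshold, although Herc6 did with the red blood cell covariate (adjusted p = 0.0481). The other 2 enzymes of the cascade were in the list of other interferon-induced genes. Ube2l6, its conjugating enzyme, was at 85.2, 117 and 92.4 TPM in control tumours against 274, 203 and 186 in LIGHT tumours and rose (log2 fold change of 1.16 ± 0.17 SE, adjusted p = 0.0045 by limma). Uba7, its activating enzyme, named after its values were seen, was at 21.1, 24.7 and 21.9 TPM in control tumours against 52.2, 38.8 and 38.2 in LIGHT tumours and rose (log2 fold change of 0.89 ± 0.14 SE, adjusted p = 0.0051 by limma).

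Nucleotide and RNA metabolism. Samhd1 removes the nucleotides that viral polymerases need. It was at 355, 410.2 and 357 TPM in control tumours against 715, 488 and 492 in LIGHT tumours and rose (log2 fold change of 0.57 ± 0.15 SE, adjusted p = 0.0343 by limma), a call lost without control replicate 1 (adjusted p = 0.0834), control replicate 2 (adjusted p = 0.0561) or control replicate 3 (adjusted p = 0.1), and with no filter on low values, quantile normalization, the red blood cell covariate, the muscle covariate or trimmed-mean scaling. Cmpk2, a mitochondrial nucleotide kinase, was at 4.12, 4.59 and 4.64 TPM in control tumours against 10.3, 6.74 and 6.04 in LIGHT tumours and rose (log2 fold change of 0.64 ± 0.18 SE, adjusted p = 0.0374 by limma), a call lost without LIGHT replicate 2 (adjusted p = 0.0609), control replicate 1 (adjusted p = 0.0886), control replicate 2 (adjusted p = 0.0856) or control replicate 3 (adjusted p = 0.0875), and with no filter on low values, quantile normalization, a replicate block, the muscle covariate or trimmed-mean scaling. Rsad2 encodes viperin, which turns CTP into a chain terminator, and lies next to Cmpk2 on chromosome 12. It was at 4.61, 5.74 and 9.38 TPM in control tumours against 10.2, 7.55 and 6.13 in LIGHT tumours (log2 fold change of 0.27, adjusted p = 0.479 by limma), and control replicate 3 exceeded LIGHT replicates 2 and 3. Isg20, an RNA exonuclease, was at 65.4, 82.8 and 54.8 TPM in control tumours against 120.5, 99.2 and 78.8 in LIGHT tumours, with LIGHT replicate 3 below control replicate 2 (log2 fold change of 0.55, adjusted p = 0.0736 by limma). It passed the threshold without control replicate 2 (adjusted p = 0.0495) and with a replicate block (adjusted p = 0.034).

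Membrane proteins. Ifitm3 blocks the entry of enveloped viruses from endosomes and was the most abundant of the 38 genes. It was at 4022, 4569 and 4118 TPM in control tumours against 6589.99, 6009.7 and 5407 in LIGHT tumours and rose (log2 fold change of 0.50 ± 0.10 SE, adjusted p = 0.0144 by limma), a call lost without control replicate 1 (adjusted p = 0.0507) and with either covariate or trimmed-mean scaling. Bst2, encoding tetherin, which holds budding virus at the cell surface, was at 246, 310.1 and 213 TPM in control tumours against 588, 529 and 444 in LIGHT tumours. Its mean TPM was 2.03 times as high in LIGHT tumours (log2 fold change of 1.03 ± 0.16 SE, adjusted p = 0.00513 by limma). Rtp4, a chaperone of membrane receptors, was at 159.9, 219.8 and 213 TPM in control tumours against 326, 250.4 and 219 in LIGHT tumours (log2 fold change of 0.42, adjusted p = 0.125 by limma), with LIGHT replicate 3 below control replicate 2.

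PARP and DTX3L factors. Parp9 and Dtx3l encode partners in a ubiquitin ligase complex and lie head to head on chromosome 16 (Dtx3l from 35926515 to 35939027 and Parp9 from 35938470 to 35972621). Their ends overlap, and without knowledge of strand in the counting reads there cannot be told apart. Parp9 was at 71.5, 85.9 and 72.7 TPM in control tumours against 149, 108 and 104 in LIGHT tumours and rose (log2 fold change of 0.63 ± 0.15 SE, adjusted p = 0.0222 by limma), a call lost without control replicate 1 (adjusted p = 0.0576) or control replicate 3 (adjusted p = 0.0714), and with the red blood cell covariate or the muscle covariate. Dtx3l was at 39.2, 44.7 and 39.5 TPM in control tumours against 82.95, 49.7 and 54.2 in LIGHT tumours (log2 fold change of 0.55, adjusted p = 0.0639 by limma), and passed the threshold without LIGHT replicate 2 (adjusted p = 0.0464). Parp14, an ADP-ribosyltransferase, was at 34.2, 45.1 and 33.97 TPM in control tumours against 107, 69.1 and 67.9 in LIGHT tumours and rose (log2 fold change of 1.06 ± 0.19 SE, adjusted p = 0.00917 by limma). Parp12, an ADP-ribosyltransferase of the same family, was at 51.01, 58.1 and 55.2 TPM in control tumours against 70.98, 52.4 and 51.1 in LIGHT tumours (log2 fold change of 0.07 ± 0.13 SE, adjusted p = 0.737 by limma). LIGHT replicates 2 and 3 of Parp12 lay within the control range, while those of Parp14 lay well above it.

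Other induced proteins. Trim30a, a tripartite motif protein that restrains NF-kB signalling, was at 10.7, 14.8 and 15.4 TPM in control tumours against 55.9, 34.03 and 30.6 in LIGHT tumours and rose (log2 fold change of 1.46 ± 0.23 SE, adjusted p = 0.00579 by limma). Xaf1, a partner of the apoptosis inhibitor XIAP, was at 39.1, 54.9 and 52.2 TPM in control tumours against 126, 90.96 and 75.97 in LIGHT tumours (log2 fold change of 0.97 ± 0.20 SE, adjusted p = 0.0135 by limma). Ifi44 was at 15.4, 22.7 and 17.2 TPM in control tumours against 51.4, 36.4 and 33.7 in LIGHT tumours (log2 fold change of 1.09 ± 0.19 SE, adjusted p = 0.00817 by limma). These 3 genes had non-overlapping groups and mean TPM 2.95, 2 and 2.19 times as high in LIGHT tumours. Ifi35, which pairs with NMI, was at 68.2, 84.8 and 76.7 TPM in control tumours against 138, 112 and 99.9 in LIGHT tumours and rose (log2 fold change of 0.59 ± 0.13 SE, adjusted p = 0.0195 by limma), a call lost without control replicate 1 (adjusted p = 0.0516) or control replicate 3 (adjusted p = 0.0572), and with the red blood cell covariate, the muscle covariate or trimmed-mean scaling. Phf11d was at 13.4, 17.5 and 17.4 TPM in control tumours against 31.6, 21.8 and 20.6 in LIGHT tumours (log2 fold change of 0.57, adjusted p = 0.0545 by limma), with its LIGHT libraries all above control and 13.9% of its 50-base windows shared with other genes. Ifi27 was at 45.9, 46.5 and 32.3 TPM in control tumours against 48.1, 68.2 and 60.8 in LIGHT tumours (log2 fold change of 0.50, adjusted p = 0.0775 by limma), and passed the threshold without LIGHT replicate 1 (adjusted p = 0.0421). It was the only one of the 38 genes with its highest value in LIGHT replicate 2. Ifi204, a DNA-binding protein of the IFI200 family, was at 146, 153 and 140.2 TPM in control tumours against 180.5, 128 and 122 in LIGHT tumours (log2 fold change of -0.05 ± 0.15 SE, adjusted p = 0.839 by limma). LIGHT replicates 2 and 3 of Ifi204 were below every control library, and 29.7% of its 50-base windows were found in other genes, most of them in Ifi211.

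**Figure D2:**
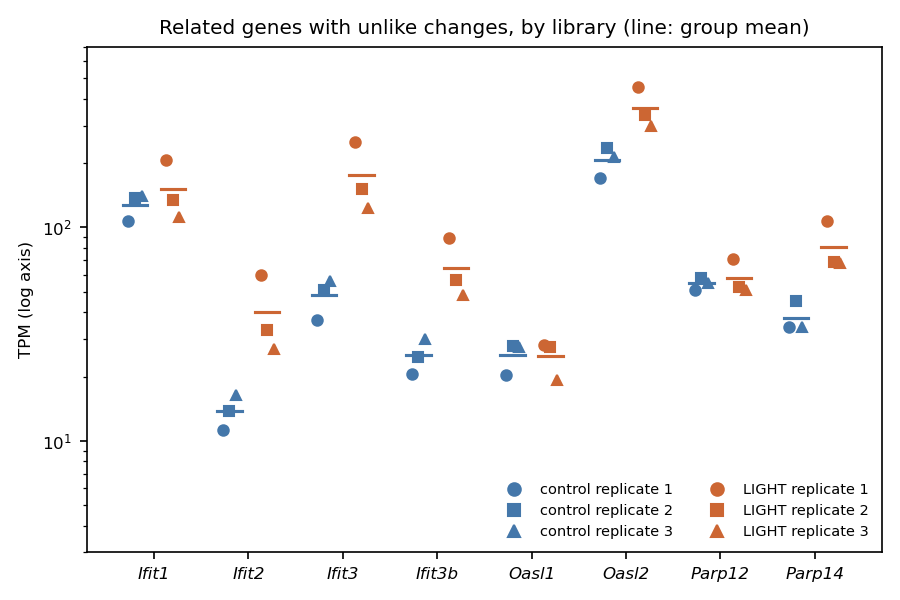
TPM on a log axis in each library for pairs of related genes (control in blue, LIGHT in orange, symbols for replicates, lines for group means of 3 libraries). Ifit2, Ifit3, Ifit3b, Oasl2 and Parp14 have separate groups, while those of Ifit1, Oasl1 and Parp12 overlap.

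Ratios between 2 genes of the same library do not depend on the scaling between libraries. The pairs were chosen after the values were seen, and the ratios are given as a description without a test. Ifit3 over Ifit1 was 0.34, 0.37 and 0.4 in the control libraries and 1.21, 1.14 and 1.11 in the LIGHT libraries. The mean log2 ratio was 1.63 higher in LIGHT, against an SD of 0.11 in control and 0.06 in LIGHT. The groups did not overlap.

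Ifit2 over Ifit1 was 0.11, 0.1 and 0.12 in control and 0.29, 0.25 and 0.24 in LIGHT. Ifit3b over Ifit1 was 0.19, 0.18 and 0.22 in control and 0.43, 0.42 and 0.43 in LIGHT. The ratio of the near-identical copies, Ifit3b over Ifit3, was 0.56, 0.49 and 0.53 in control and 0.36, 0.37 and 0.39 in LIGHT. Ifit3b thus made up a smaller share relative to Ifit3 in LIGHT libraries, in values in which shared reads may have been split.

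Oasl2 over Oasl1 was 8.32, 8.47 and 7.78 in control and 16.04, 12.26 and 15.43 in LIGHT. Parp14 over Parp12 was 0.67, 0.78 and 0.62 in control and 1.5, 1.32 and 1.33 in LIGHT. These pairs also had groups that did not overlap. Dtx3l over Parp9 was 0.55, 0.52 and 0.54 in control and 0.56, 0.46 and 0.52 in LIGHT, a mean log2 difference of -0.07 against an SD of 0.04 in control and 0.14 in LIGHT. Cmpk2 over Rsad2 was 0.89, 0.8 and 0.49 in control and 1.01, 0.89 and 0.99 in LIGHT, a mean log2 difference of 0.44 against an SD of 0.45 in control.

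**Figure D3:**
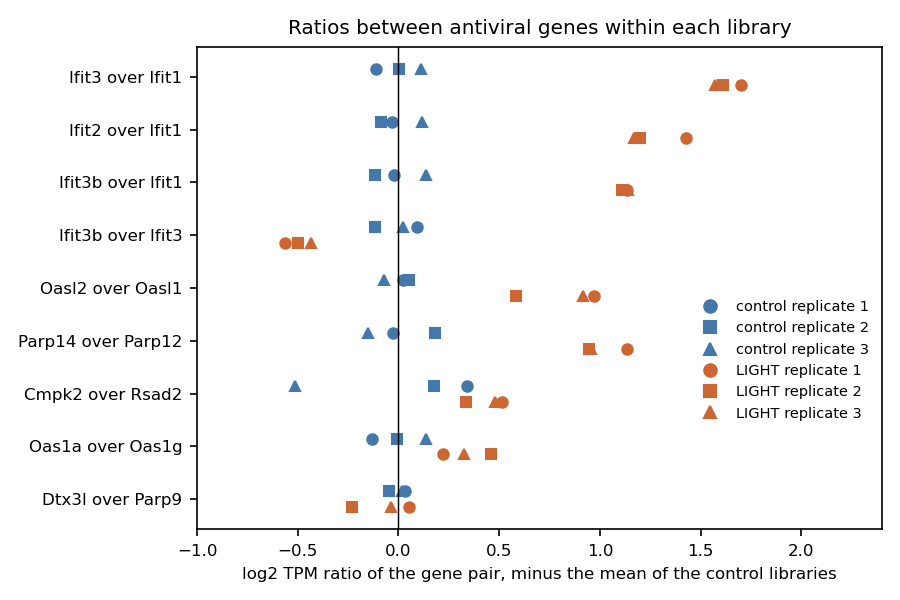
Log2 TPM ratio of 9 gene pairs within each library, minus the mean of the 3 control libraries (horizontal axis; control in blue, LIGHT in orange). The 3 LIGHT values of Ifit3 over Ifit1 lie near 1.63 with an SD of 0.06, while those of Dtx3l over Parp9 lie on both sides of the control mean.

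Genes with and without an ISRE core in the promoter window rose in like numbers. Ifit1, with both ISRE cores of Ifit3 and Ifit3b, was not called, and nor were Isg15, with 3 overlapping cores, or Rsad2. Of the 15 genes with an ISRE core in a window 7 rose, with a median log2 fold change of 0.58 and a range of 0.20 to 1.81. Of the 15 with a window and no core 8 rose, with a median of 0.57 and a range of -0.02 to 1.40. No test was made of the difference between genes with and without a core. Of all tested genes 17.7% rose. A window without a match does not show that the gene lacks an ISRE. With GAAANNNGAAA also allowed, 17 of the 30 genes had a match.

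The antiviral genes moved together between libraries of the same group. LIGHT replicate 1 held the highest value of all 6 libraries in 37 of the 38 genes, against 30.6% of tested genes. Control replicate 2 was the highest control library in 28 of the 38, against 29.1% of tested genes. Control replicate 1 held the lowest of the 6 values in 30 of the 38, against 16.5% of tested genes. The counts for LIGHT replicate 1 and control replicate 1 rank all 6 libraries, so they partly restate the difference between the groups. In 27 of the 38 genes each LIGHT library lay above every control library. Relative to each gene's control mean, the median of the 38 genes in log2(TPM + 1) was -0.14, 0.15 and 0.01 in the control libraries. It was 0.94, 0.51 and 0.39 in the LIGHT libraries, against 0.14, 0.02 and 0.10 for all tested genes. The lead of LIGHT replicate 1 over the mean of LIGHT replicates 2 and 3 had a median of 0.53, against 0.10 over all tested genes.

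**Figure D4:**
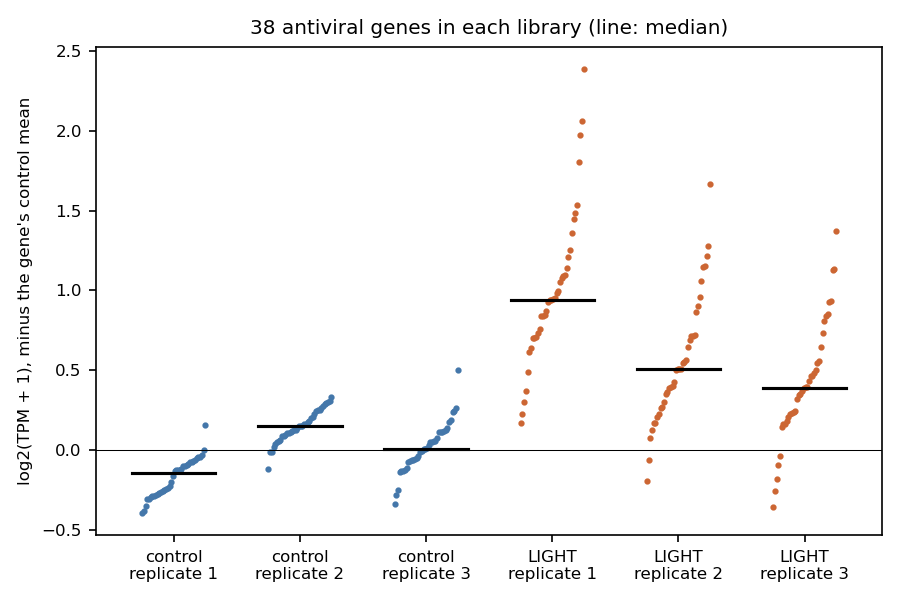
Log2(TPM + 1) of the 38 antiviral genes in each library, minus the gene's mean over the 3 control libraries (each point a gene, sorted within the library, and the line the median). The medians of the LIGHT libraries are 0.94, 0.51 and 0.39, and LIGHT replicate 1 stands above the other LIGHT libraries.

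Without LIGHT replicate 1, 19 of the 38 genes rose, 18 of them among the 19 called with it, at a median log2 fold change of 0.43, against 14.6% of the genes tested without it. LIGHT replicates 2 and 3 were both above every control library in 27 of the 38 genes, against 34.7% of tested genes. The spread of the members within a group was wider than usual: the median coefficient of variation was 16.4% in control and 23.3% in LIGHT tumours, against 9.88% and 10.6% for all tested genes.

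Interferon ligands stood near the lower limit of the table. Of 20 type I and type III ligand genes, 10 were matched and none passed the filter of 1 TPM in 3 libraries. Ifnb1, encoding interferon beta, was listed at 0.15, 0.14 and 0.15 TPM in control and 0, 0.14 and 0.15 TPM in LIGHT libraries. The only ligand values of 1 TPM or more were those of Ifne, an epithelial type I interferon, at 1.62 TPM, and Ifnl3, an interferon lambda, at 1.94 TPM, both in LIGHT replicate 1. In the other 5 libraries Ifne was between 0.37 and 0.59 TPM and Ifnl3 between 0.14 and 0.25 TPM. LIGHT replicate 1 was also the library with the highest antiviral values, and the part of these ligands in that was not tested. Ifng, encoding interferon gamma, was at 3.37, 8.47 and 4.46 TPM in control tumours against 21.5, 14.4 and 11.5 in LIGHT tumours and rose (log2 fold change of 1.42 ± 0.31 SE, adjusted p = 0.017 by limma), and it too was highest in LIGHT replicate 1. Ifng missed the threshold without control replicate 3 (adjusted p = 0.0588) and with the red blood cell covariate (adjusted p = 0.0853).

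Receptor and signalling genes rose in 9 of 14 cases and fell in 0, against 17.7% and 5.41% of all tested genes. Their median log2 fold change was 0.41. Ifnar2 was at 36.6, 32.4 and 28.7 TPM in control tumours against 50.4, 48.2 and 47.6 in LIGHT tumours and rose (log2 fold change of 0.57 ± 0.10 SE, adjusted p = 0.00874 by limma). Ifnar1, the other chain, was at 8.20, 7.12 and 7.29 TPM in control tumours against 10.99, 8.77 and 10.7 in LIGHT tumours and passed just under the threshold, with an adjusted p that rounds to it (log2 fold change of 0.38 ± 0.12 SE, adjusted p = 0.05 by limma), a call held in 6 of 17 other settings and lost without LIGHT replicate 1 (adjusted p = 0.108), LIGHT replicate 3 (adjusted p = 0.169), control replicate 1 (adjusted p = 0.0608), control replicate 2 (adjusted p = 0.143) or control replicate 3 (adjusted p = 0.134). Irf1, the factor induced by interferon gamma, was at 193, 269 and 196 TPM in control tumours against 413, 342 and 297 in LIGHT tumours and rose (log2 fold change of 0.68 ± 0.16 SE, adjusted p = 0.0236 by limma), a call lost without LIGHT replicate 1 (adjusted p = 0.0538), LIGHT replicate 2 (adjusted p = 0.0594), control replicate 1 (adjusted p = 0.0625) or control replicate 3 (adjusted p = 0.0779) and held in 9 of 17 other settings. Socs1, a feedback inhibitor of the receptor kinases, was at 33.2, 55.3 and 32.9 TPM in control tumours against 77.4, 79.3 and 74.4 in LIGHT tumours and rose (log2 fold change of 0.95 ± 0.19 SE, adjusted p = 0.0122 by limma). Irf5 and the phosphatase gene Ptpn6 rose by 0.52 and 0.66 on the log2 scale. The count of 9 was 5 without LIGHT replicate 1 or control replicate 1 and 4 without control replicate 3. It was 5 with trimmed-mean scaling, 2 with the muscle and 1 with the red blood cell covariate. With these covariates 581 and 976 of the 13167 tested genes rose.

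Among 19 nucleic acid sensing genes 8 rose and 1 fell, against 17.7% and 5.41% of all tested genes, with a median of 0.33. Sting1, the adaptor that relays the cytosolic DNA signal, was at 13.3, 12.6 and 12.7 TPM in control tumours against 31.7, 30.7 and 26.6 in LIGHT tumours and rose (log2 fold change of 1.14 ± 0.10 SE, adjusted p = 0.000834 by limma). Cgas, the enzyme upstream of it, was at 5.00, 4.77 and 4.45 TPM in control tumours against 4.77, 3.64 and 3.69 in LIGHT tumours (log2 fold change of -0.20, adjusted p = 0.288 by limma). Tlr3, the endosomal receptor for RNA duplexes, was at 5.67, 7.16 and 4.89 TPM in control tumours against 22.1, 12.9 and 14.1 in LIGHT tumours and rose (log2 fold change of 1.31 ± 0.21 SE, adjusted p = 0.00586 by limma), as did Unc93b1, which escorts such receptors, from 21.9, 25.8 and 25.7 to 47.4, 49.97 and 45.8 TPM (log2 fold change of 0.94 ± 0.09 SE, adjusted p = 0.00145 by limma). Ikbke, a kinase that activates IRF3 and IRF7, rose by 0.77 on the log2 scale. The gene that fell, named after its values were seen, was Mavs, the mitochondrial adaptor of the RIG-I-like receptors, at 29.3, 33.5 and 32.9 TPM in control tumours against 27.5, 23.5 and 24.1 in LIGHT tumours (log2 fold change of -0.34, adjusted p = 0.0428 by limma). It missed the threshold without LIGHT replicate 2 (adjusted p = 0.116), LIGHT replicate 3 (adjusted p = 0.145), control replicate 2 (adjusted p = 0.134) or control replicate 3 (adjusted p = 0.121), and was called in 8 of 17 other settings. Ddx58, whose product signals through MAVS, is among the antiviral genes that rose. With the muscle covariate 5 of the 19 rose, against 581 of the 13167 tested genes.

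A longer list of other interferon-induced genes, which share no member with the 38, held 51 tested genes. Of these 32 rose and 2 fell, against 17.7% and 5.41% of all tested genes, with a median of 0.62. Parp11 went from 19.7, 24.7 and 18.6 to 52.6, 40.96 and 39.7 TPM (log2 fold change of 1.04, adjusted p = 0.0038 by limma) and Lgals3bp, a secreted glycoprotein, from 92.8, 106 and 104 to 287, 214 and 177 TPM (log2 fold change of 1.13, adjusted p = 0.00467 by limma). Trim30d rose by 1.09 on the log2 scale. The genes that fell, named after their values were seen, were Slfn4, a Schlafen gene of myeloid cells, at 31.8, 44.6 and 51.9 TPM in control tumours against 20.5, 23.6 and 23.5 in LIGHT tumours (log2 fold change of -0.87, adjusted p = 0.0118 by limma), and Ifi209, at 56.4, 53.6 and 61.9 TPM in control tumours against 48.04, 33.6 and 25.7 in LIGHT tumours (log2 fold change of -0.71, adjusted p = 0.0408 by limma). Ifi209 missed the threshold without LIGHT replicate 2 (adjusted p = 0.101), LIGHT replicate 3 (adjusted p = 0.0931), control replicate 1 (adjusted p = 0.0785), control replicate 2 (adjusted p = 0.0814) or control replicate 3 (adjusted p = 0.12), and was called in 8 of 17 other settings. With the muscle covariate 11 of the 51 rose, and with the red blood cell covariate 21, against 581 and 976 of the 13167 tested genes.

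In the list of genes known for induction by interferon gamma, 17 of 21 tested genes rose and 0 fell. The shares of all tested genes were 17.7% and 5.41%. The list had a median of 0.99 and a range of 0.44 to 2.37. Socs1 and Irf1 are counted in this list and among the signalling genes. Cxcl9, the T cell attractant that depends on interferon gamma, was at 203, 242 and 196 TPM in control tumours against 1481, 999 and 903 in LIGHT tumours (log2 fold change of 2.37, adjusted p = 0.000658 by limma). Cxcl10, from the same locus, was at 328, 490.1 and 302 TPM in control tumours against 1919, 1386 and 1208 in LIGHT tumours (log2 fold change of 2.01, adjusted p = 0.002 by limma). Gbp5, a guanylate-binding protein, was at 26.5, 39.04 and 27.4 TPM in control tumours against 138, 84.3 and 85.5 in LIGHT tumours (log2 fold change of 1.68, adjusted p = 0.00319 by limma), and Tgtp2, a GTPase, rose by 1.17 on the log2 scale. The difference from the antiviral genes, of which 19 of 38 rose, was not tested. The count of 17 was 11 without control replicate 3 or with the red blood cell covariate and 8 with the muscle covariate. Over the 13167 tested genes, 976 rose with the red blood cell and 581 with the muscle covariate.

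**Figure D5:**
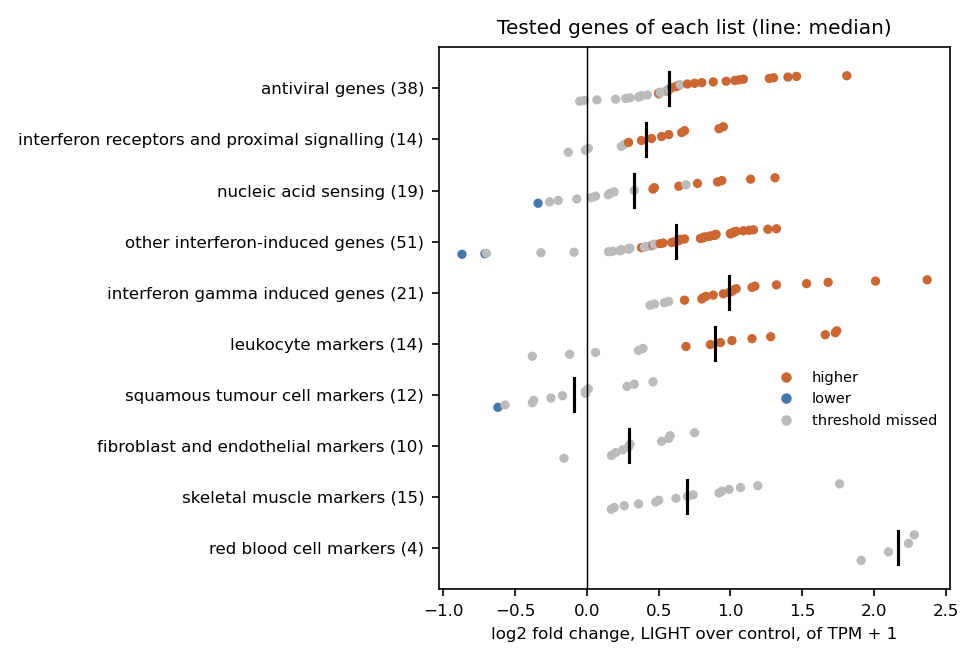
Log2 fold change of TPM + 1, LIGHT over control, of the tested genes of each list (each point a gene, orange higher, blue lower, grey threshold missed, line the median; the number tested in parentheses). The medians run from -0.09 in squamous markers to 0.99 in interferon gamma induced genes and 2.17 in red blood cell markers, of which none passed the threshold.

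Many leukocyte markers also rose in LIGHT tumours. Of 18 leukocyte markers 14 were tested, of which 9 rose, 0 fell and 5 were not called. The shares of all tested genes were 17.7% higher and 5.41% lower. The median log2 fold change of the 14 was 0.89. Ptprc, the pan-leukocyte gene encoding CD45, was at 11.5, 16.5 and 13.5 TPM in control tumours against 28.3, 25.03 and 23.99 in LIGHT tumours (log2 fold change of 0.86 ± 0.14 SE, adjusted p = 0.00572 by limma). Cd3e, a T cell receptor chain, Itgax, an integrin of dendritic cells and macrophages, and C1qa, a macrophage complement gene, rose by 1.73, 1.01 and 0.93 on the log2 scale. The 5 not called were Adgre1, Cd68, Csf3r, S100a8 and S100a9, with log2 fold changes of 0.36, 0.39, 0.06, -0.38 and -0.12. The summed level of the 18 markers was 1726 to 2186 TPM in control and 1272 to 3835 TPM in LIGHT libraries, and the B cell gene Ms4a1 was listed at 0 in the 3 control libraries. With the muscle covariate 5 of the 14 rose, against 581 of the 13167 tested genes. S100a8, a neutrophil gene with a large part of that sum, was at 704, 815 and 963 TPM in control tumours against 1793, 105 and 1307 in LIGHT tumours, lowest in LIGHT replicate 2. The part of leukocytes in the antiviral rise was not tested.

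Plasmacytoid dendritic cells are known as a major source of type I interferon. Siglech, their defining receptor gene, was at 0.23, 0.86 and 0.92 TPM in control tumours against 0.61, 1.01 and 0.54 in LIGHT tumours. Of 9 markers 4 were tested and 2 were called higher, Spib and Cox6a2, against 17.7% of all tested genes. Spib was at 0.66, 0.79 and 0.61 TPM in control tumours against 16.7, 12.1 and 13.6 in LIGHT tumours, so LIGHT libraries alone carried it past the filter, which fixed its direction. Cox6a2, also a muscle gene, lost its call without LIGHT replicate 2 (adjusted p = 0.109), LIGHT replicate 3 (adjusted p = 0.105), control replicate 2 (adjusted p = 0.115) or control replicate 3 (adjusted p = 0.124), and held it in 6 of 17 other settings. Tcf4, a transcription factor of these cells, was at 8.74, 7.98 and 6.45 TPM in control tumours against 8.33, 7.21 and 8.83 in LIGHT tumours (log2 fold change of 0.07, adjusted p = 0.74 by limma). Ly6d, also expressed in squamous cells, was at 2755, 3163 and 3256 TPM in control tumours against 3753, 3174 and 3665 in LIGHT tumours. Summed over the 9 markers, which Ly6d dominates, the level was 3007 to 3393 TPM in control and 3653 to 4040 TPM in LIGHT libraries. Ccr9, Pacsin1, Klk1 and Dntt stayed under 1 TPM in all 6 libraries, and the part of these cells in the antiviral rise was not tested.

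Tongue muscle and blood also differed between libraries. The summed level of 15 skeletal muscle markers was 3473 to 5866 TPM in control and 5387 to 9592 TPM in LIGHT libraries, and that of 5 red blood cell markers 69.97 to 452.8 TPM and 119 to 2086 TPM. None of the 19 tested genes of these lists passed the threshold, against 17.7% of all tested genes higher and 5.41% lower. Without control replicate 1, 7 muscle genes were called higher, against 1834 of the 13084 genes tested. Without LIGHT replicate 1, 4 muscle and 4 red blood cell genes were called higher, against 1888 of the 12928 tested. The 4 tested red blood cell genes were also called higher with the replicate number as a block, against 2325 of the 13167 tested genes. Of 10 fibroblast and endothelial markers none passed either, with a median of 0.3. The summed level of muscle markers was highest in LIGHT replicate 2, as was that of red blood cell markers, whereas that of the antiviral genes was highest in LIGHT replicate 1, at 12139 TPM. With the muscle covariate the median log2 fold change of the antiviral genes was 0.82 and the median SE 0.24, and with the red blood cell covariate 0.72 and 0.21, against 0.58 and 0.18 without. Both covariate fits thus had fewer calls, with a larger median change and a wider SE.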

How the data were processed

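RNA-seq values of 6 tumour libraries, 3 control and 3 LIGHT, grouped by their titles, were deposited by the authors as TPM per gene. Per the labels' protocols, RNA was extracted with Trizol and depleted of ribosomal RNA. HISAT, Bowtie2 and GRCm38.p6 are named in the submitters' processing notes. Which tool made the TPM, on which annotation, strand setting and filter, is not stated in the sources used here. The 40 genes and all lists were chosen with earlier results of these data known. Genes of at least 1 TPM in 3 libraries (13167 of 18437) were tested on log2(TPM + 1), a scale that understates changes of low genes, with limma 3.58.1 (R 4.3.3, mean-variance trend, two-sided, Benjamini-Hochberg adjusted p under 0.05). In the groups 12713 to 12838 and 13183 to 13271 genes reached 1 TPM. The script was tested on simulated data. Alternatives were other pseudocounts (0.1, 0.5), no filter or 5 TPM, trimmed-mean and quantile scaling, no trend, robust fitting, a replicate block, muscle or red blood cell covariates, and each library left out. Six-library values were given for the genes of the list. From each other list up to 4 genes with the smallest p were named, plus Ifnb1, Ifnar1, Ifnar2, Irf1, Cgas, Sting1, Siglech, Ptprc and Tnfsf14, and genes marked as named after their values were seen, to which Ifng, Ifne, Ifnl3, Ms4a1, S100a8, Ccr9, Pacsin1, Klk1 and Dntt also belong. A further gene of that rule is not reported here. Motifs were searched in RefSeq promoter windows (GRCm38.p6), and shared sequence in GENCODE M21 transcripts.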

Additional observations from a re-analysis of the deposited data

How the results depend on the processing

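Of 646 values of the 38 genes under the 17 alternatives, 575 kept their direction and their side of the threshold, 53 lost the call, 7 gained it and 11 changed sign. The sign changes were all in genes that missed the threshold: Ifit1 (-0.05 without LIGHT replicate 1), Oasl1 (0.07 with the muscle covariate, and 0.15, 0.06 and 0.05 without LIGHT replicate 3, control replicate 2 or control replicate 3), Ifi204 (0.07 with the muscle and 0.12 with the red blood cell covariate, 0.02 and 0.05 without LIGHT replicate 2 or 3) and Parp12 (-0.06 with trimmed-mean scaling, -0.08 without LIGHT replicate 1). With each library left out in turn these genes ranged from -0.05 to 0.39, -0.16 to 0.15, -0.22 to 0.05 and -0.08 to 0.16. Of the 38, 19 rose, 10 with the muscle and 12 with the red blood cell covariate, and 12 to 19 with each library left out, with 0 lower in every setting and a median of 0.43 to 0.70 with each library left out. Every fit pooled the spread over both groups, also those with 2 libraries in a group. Over all genes 2325 rose and 712 fell. The numbers were 1637 and 2005 with trimmed-mean scaling, 1410 and 1813 with quantile scaling, 581 and 91 with the muscle and 976 and 207 with the red blood cell covariate. With each library left out 1145 to 1888 rose and 314 to 773 fell. The scaling thus set the split of calls over all genes. The median of all genes was 0.09, and -0.04 with trimmed-mean or quantile scaling, while the 38 genes had a median of 0.44 and 0.49. The deposited labels share replicate numbers but do not say that these pair the samples, and the correlations of same-numbered deviations were 0.37, 0.237 and 0.00995. With the number as a replicate block 17 of the 38 rose, 16 of them among the 19, and over all genes 2325 rose and 907 fell, and not every library correlated best with its own number. Depth is unknown, so counting error cannot be given, and 3 libraries a group limit the precision.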
